A study of Mus musculus with 2 samples.

Results

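The subject is the telomeric array of the mouse genome and the simple repeats whose unit is nearly telomeric. They were followed, in samples labelled mitotic, by ChIP-seq (chromatin immunoprecipitation and sequencing) for H3.3S31ph. This is the form of histone H3.3 that carries a phosphate on serine 31. Rows were chosen by name alone. A row was taken if its repeated unit was a rotation or the reverse complement of the vertebrate telomere hexamer, or lay 1 substituted, deleted or inserted base from such a form. The rule took 8 of 952 repeat types, of which 1 was the exact array, listed as (CCCTAA)n, and 7 were variants. There were 161 simple repeats in all, so the members were 8 of these and 153 lay outside the rule.

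The ChIP group was 1 library, precipitated with 10 µg of an antibody to H3.3S31ph, and the input group was 1 library of the same kind of chromatin with no antibody. Both came from wild-type ES (embryonic stem) cells of strain 129S1/SvImJ under 20 passages, held for 12 hours in RO-3306 at 9 µM, which blocks the kinase CDK1 and so entry into mitosis, then washed and collected 11 hours after release. Both groups thus share the arrest and release, and there was no unsynchronised or H3.3-deficient group, so mitosis and genotype were not compared, and the tables hold no measure of how many cells were in mitosis. The ChIP library held 6204712 and 6030765 repeat reads in its 2 lanes, and the input library held 4467116 and 4389635. Per the labels both lanes belong to the same ChIP and input samples, so their reads were added up, leaving 1 sample a group, no replicate check and no test between conditions. Every interval given is a 95% interval of counting error and compares these 2 libraries only.

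Telomeres are the protein-capped ends of chromosomes, built in vertebrates from long tandem arrays of a G-rich hexamer that telomerase extends and the shelterin complex covers. H3.3 is a variant of histone H3 that can be placed in chromatin outside of S phase, and in mouse ES cells the ATRX and DAXX proteins are known to deposit it at telomeres. Serine 31 is found in H3.3 and not in the canonical H3 histones, and its phosphorylation is a mitotic mark. Units close to the telomeric one occur as short arrays inside mammalian chromosomes. Some of them form the chromosome ends of other organisms.

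Variants 1 to 6 are printed, as 3 copies of the unit, because the comparison turns on single bases. Each was written 5′ to 3′ in the frame of the C-rich telomere strand, with a substituted base in capitals and positions counted from 1 at the 5′ end of this frame. A deletion leaves no letter to mark and shortens the stretch.
Variant 1, (CCCTAG)n: ccctaGccctaGccctaG
Variant 2, (TTAGGC)n: GcctaaGcctaaGcctaa
Variant 3, (CCCCAA)n: cccCaacccCaacccCaa
Variant 4, (CCCGAA)n: cccGaacccGaacccGaa
Variant 5, (TAGGG)n: ccctaccctacccta
Variant 6, (CCTAA)n: cctaacctaacctaa
The substitutions are A6G in variant 1, C1G in variant 2, T4C in variant 3 and T4G in variant 4. Variant 5 lacks an A, variant 6 a C and variant 7 the T. Variant 3 is the telomere unit of the ciliate Tetrahymena, variant 2 that of the nematode Caenorhabditis elegans and variant 6 that of many insects, read on the other strand. Of 39 different units that lie 1 edit from the hexamer, counted over rotations and strands, 7 had a row among those analysed: 4 of 18 substitutions, all 3 deletions and 0 of 18 insertions. These counts depend on which repeat types were listed and do not tell which units the genome holds.

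One changed base per unit adds up along a read. Laid without gaps on the telomeric array in its best phase, a read of 50 bases from a pure array of variants 1 to 4 has 8 mismatches. A deletion shifts the phase, so variants 5, 6 and 7 have 27, 28 and 25 mismatches. The longest stretch without a mismatch was 5 bases for variants 1 to 4 and 7, 6 bases for variant 5 and 7 bases for variant 6. These numbers describe pure arrays only. They do not tell whether reads of the exact array were counted in the row of a variant.

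The exact array was strongly enriched in the ChIP. It had 520534 and 504994 ChIP reads in lanes 1 and 2, against 26127 and 25584 input reads. Its level was thus 83816 reads per 1000000 repeat reads in the ChIP (83661 to 83971) and 5839 in the input (5789 to 5889), and the intervals are far apart. The ratio divides the share of a row in the repeat reads of the ChIP by its share in those of the input, and here it was 14.4 (14.2 to 14.5). At a ratio of 1 the array would have held 71438 ChIP reads, so 954090 reads lay beyond that level. Reads from chromosome ends and from internal arrays of the same unit stand in this 1 row and cannot be told apart.

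This enrichment moved the array up the order of all repeats. By read number it was rank 2 in the ChIP, behind only the major satellite GSAT_MM, and rank 25 in the input. It made up 78.3% of all simple-repeat reads in the ChIP and 17.2% in the input. The other 160 simple repeats together held 2.33% of the repeat reads in the ChIP and 2.82% in the input. The 10 repeats nearest to it in input reads, with 44959 to 59730 each, had ratios between 0.699 and 0.975. They were mostly B1 short interspersed elements and long terminal repeats, of which B1F had 66755 ChIP reads and 52297 input reads, a ratio of 0.924 (0.913 to 0.935).

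**Figure D1:**
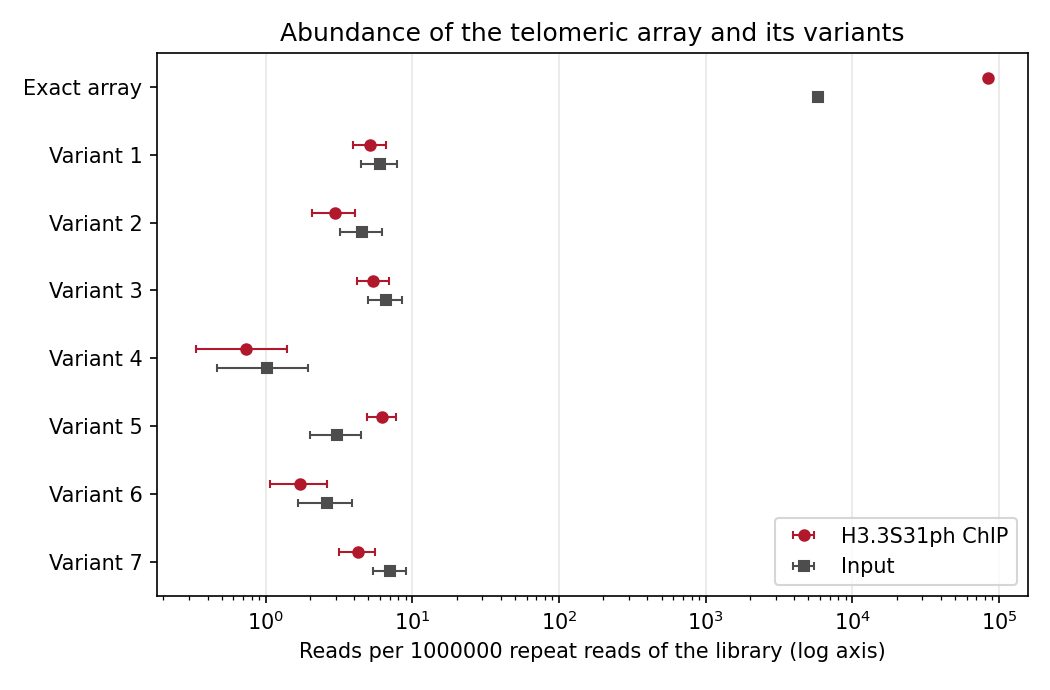
Reads per 1000000 repeat reads of the library on a log axis for the exact array and variants 1 to 7, with circles for the H3.3S31ph ChIP, squares for the input and bars for 95% counting intervals. The exact array stands at 83816 in the ChIP and 5839 in the input, while all 7 variants lie under 10 in both libraries.

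The variants were rare, and as a group they showed no enrichment over the input beyond counting error. All 7 together had 323 ChIP reads and 272 input reads, which is 26.4 per 1000000 repeat reads in the ChIP and 30.7 in the input. Their pooled ratio was 0.860 (0.729 to 1.01), with an interval that included 1. It was 1.04 (0.812 to 1.33) in lane 1 and 0.732 (0.584 to 0.918) in lane 2, where the interval lay below 1. It also lay below 1, at 0.819 (0.695 to 0.967), with totals that leave out the 5 repeats with most input reads. The variants' reads amounted to 0.0315% of the array's reads in the ChIP and 0.526% in the input. Their median ratio was 0.724 (log2 ratio -0.47), beside a median of 0.806 (log2 ratio -0.31) over the 947 repeats with any input read. Over the 40 other simple repeats with 9 to 62 input reads, the variants' own range, the median was higher, at 0.920. The median of the variants describes a short list and is not a test.

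The array and its variants therefore differed by more than counting error. The ratio of the exact array was 16.7 times that of the pooled variants (14.2 to 19.6), a value that no scaling of the 2 libraries can change. Set against single variants it ran from 7.05 times (4.54 to 10.9) for variant 5 to 23.7 times (16.3 to 34.2) for variant 7. All 7 of these intervals lay above 1. For the 4 substitution variants pooled the array stood 18.2 times higher (14.7 to 22.6), and for the 3 deletion variants 14.9 times (11.7 to 19.0).

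No variant had 100 input reads, the minimum planned for counts and medians, so the variants were counted without a minimum. At a ratio of at least 1.5 there was 1 of 7 variants, (TAGGG)n, and the same row was the only one with an interval above 1. The background, taken without the variants, was 4.38% of the 137 repeats with 9 to 62 input reads, the variants' own range, for a ratio of at least 1.5, and 1.46% for an interval above 1. Among the 40 simple repeats in that range it was 7.5% and 5%. Over the 704 repeats of 100 or more input reads it was 1.99% and 7.81%. With 7 rows, 1 call carries little weight against these shares. An interval below 1 was found for 1 of 7 variants, (CAACC)n, against 12.4% of the 137 repeats of like depth, 10% of the 40 simple repeats and 79.5% of the 704 deeper ones. That call depended on lane and scale. Its interval was 0.406 to 1.28 in lane 1 alone and 0.511 to 1.11 with the median repeat set to 1. Conversely, (TTAGGC)n had an interval of 0.269 to 0.9999 in lane 2 alone.

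**Figure D2:**
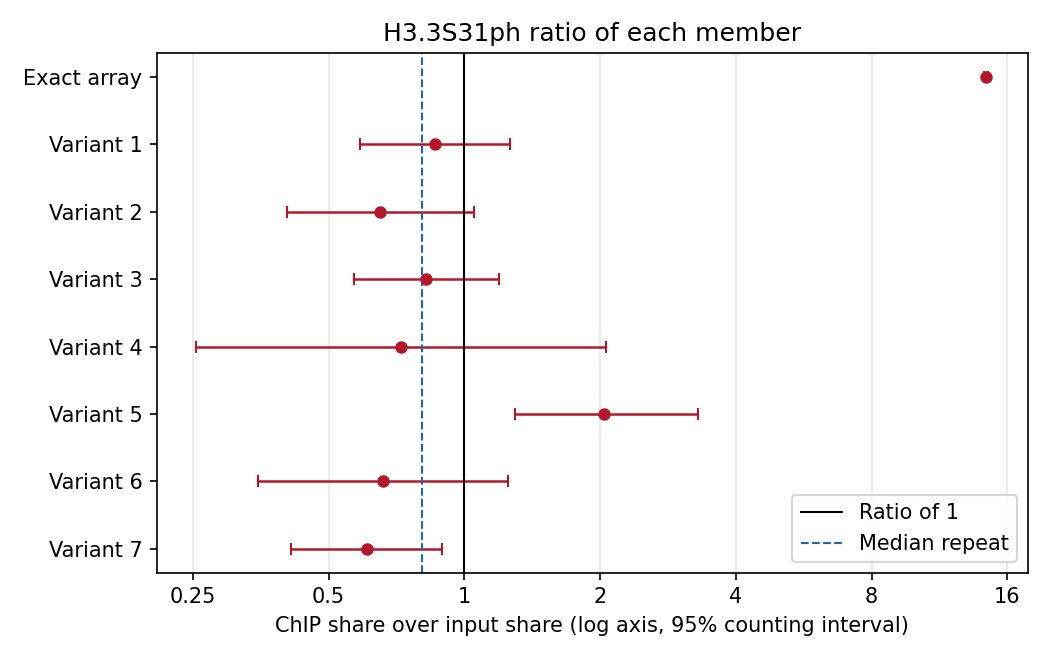
Ratio of ChIP share to input share on a log axis for the exact array and variants 1 to 7, with 95% counting intervals, a solid line at 1 and a dashed line at the median repeat with at least 100 input reads (0.805). The exact array lies at 14.4, variant 5 at 2.04 with an interval above 1, and the other 6 variants between 0.607 and 0.860.

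Among the substitution variants the ratios ran from 0.651 to 0.860, with wide intervals. Variant 1, (CCCTAG)n, had 31 and 32 ChIP reads in lanes 1 and 2, against 15 and 38 input reads, a ratio of 0.860 (0.588 to 1.26). Variant 2, (TTAGGC)n, had 18 and 18 ChIP reads, against 15 and 25 input reads, a ratio of 0.651 (0.403 to 1.05). Neither was separable from 1 at this depth. Variant 3, (CCCCAA)n, the Tetrahymena unit, had 32 and 34 ChIP reads, against 27 and 31 input reads, a ratio of 0.824 (0.570 to 1.19). Variant 4, (CCCGAA)n, was the rarest member, with 5 and 4 ChIP reads, against 5 and 4 input reads, a ratio of 0.724 (0.255 to 2.06). Its interval reaches beyond 2, so an enrichment of that size was not detectable at this depth. Pooled, the 4 substitution variants had 174 ChIP reads and 160 input reads. Their ratio of 0.787 (0.631 to 0.982) lay below 1 when scaled by table totals, and close to the median repeat. Its side of 1 was not tested on other scales. The log2 ratio was -0.345, and setting the median repeat to 1 raises every log2 ratio by 0.313.

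The deletion variants had ratios from 0.607 to 2.04, and the upper end was variant 5 alone. Variant 5, (TAGGG)n, which keeps the run of G on the G-rich strand and lacks an A on the printed strand, had 41 and 35 ChIP reads in lanes 1 and 2, against 16 and 11 input reads. Its ratio was 2.04 (1.30 to 3.29), and it was above 1 in both lanes, at 1.84 in lane 1 and 2.32 in lane 2. Variant 6, (CCTAA)n, the insect unit, had 9 and 12 ChIP reads, against 8 and 15 input reads, a ratio of 0.661 (0.348 to 1.25). Variant 7, (CAACC)n, had 27 and 25 ChIP reads, against 27 and 35 input reads, a ratio of 0.607 (0.412 to 0.892). In the order of ratios, the exact array came first and variant 5 next, with intervals that did not overlap. The interval of variant 5 also lay above those of the other variants, except variant 4 with its few reads. The other 6 variants had intervals that overlapped each other and included the median repeat, at 0.805.

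Variant 5 was set apart after its value was seen. Its ratio was 2.79 times (1.74 to 4.48) that of the other 6 variants pooled, which had 247 ChIP reads and 245 input reads. It held 38.7 ChIP reads beyond a ratio of 1, which is 0.00377% of the ChIP reads of the exact array. Whether reads of the exact array contributed to this row was not tested, and the sources used here do not give the rule by which reads were assigned to rows. Without it the pooled ratio of the variants was 0.730 (0.609 to 0.874), and the array stood 19.7 times higher (16.5 to 23.5).

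Runs of G and base composition, which the choice of members did not use directly, were also compared. A run of at least 3 G on one strand was kept by 5 of 7 variants, with ratios from 0.607 to 2.04, and the other 2, (TTAGGC)n and (CCTAA)n, had 0.651 and 0.661. G or C made up 4 of 6 bases in variants 1, 3 and 4, 3 of 6 in variant 2, 3 of 5 in variants 5 and 7, and 2 of 5 in variant 6. Variants 5 and 7 therefore share unit length and base composition, and they had the highest and the lowest ratio of the variants.

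Units of equal length and equal G and C content outside the rule gave a further comparison. The 3 such units for the exact array together had 6822 ChIP reads and 5653 input reads, which put their ratio at 0.874 (0.843 to 0.905). Against these the array stood 16.4 times higher (15.8 to 17.0). For variants 5 and 7 there were 29 such units, with a pooled ratio of 1.56 (1.49 to 1.62). Variant 5 was not separable from them, at 1.31 times their ratio (0.843 to 2.03), and variant 7 stood lower, at 0.390 times (0.269 to 0.565). One of the 29, (CACAG)n, held 4415 of their 7411 ChIP reads. Without it, a setting added once the values were known, the pooled ratio was 1.03 (0.970 to 1.09), variant 5 stood at 1.99 times this ratio (1.28 to 3.09) and variant 7 at 0.592 times (0.408 to 0.859). For (TTAGGC)n, set against the same 3 units as the array, and (CCTAA)n, set against 29 units, the interval included 1, at 0.746 and 0.790 times. Variants 1, 3 and 4 had only 1 such unit, (GGGAGA)n, with 828 ChIP reads and 640 input reads, and their intervals included 1 too, at 0.773 to 0.919 times.

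Rows just outside the rule, 2 edits from a telomeric form, stood slightly below a ratio of 1 when pooled and scaled by table totals. There were 38 such rows, 36 of them with input reads. Pooled, they had 10898 ChIP reads and 8339 input reads, so that their ratio stood at 0.946 (0.919 to 0.973). That is a log2 ratio of -0.08, and its side of 0 depends on the scale. Totals without the array raise every log2 ratio by 0.118, and setting the median repeat to 1 raises it by 0.313. The 19 with at least 100 input reads had a median of 0.911, beside 0.805 over all 704 repeats of that depth. These 19 ranged from 0.724 to 2.04. The highest of these was (CCCCAG)n, with 1029 ChIP reads and 365 input reads, a ratio of 2.04 (1.81 to 2.31). That is the same ratio as variant 5 over more reads, and why either row stood above the input was not tested. The exact array stood 15.2 times higher than the 38 rows pooled (14.7 to 15.6).

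Wider sets of simple repeats gave the same contrast with the array. The 105 other units of 5 to 7 bases had a pooled ratio of 0.897 (0.885 to 0.909). The 19 other units with a run of at least 3 G had 1.10 (1.05 to 1.14). Of the 6342 ChIP reads and 4184 input reads of these G-run units, (CCCCAG)n alone held 1029 and 365. The 13 G-run units with at least 100 input reads had a median of 0.998, so the pooled value does not describe them as a class. The array stood higher than the first set by a factor with an interval of 15.7 to 16.3, and 13.1 times higher than the G-run units (12.6 to 13.6). Among non-member simple repeats with at least 100 input reads, the 5 highest ratios ran from 1.31 for (CACTG)n to 2.39 for (CACAG)n. The most abundant, (CA)n, had 97289 ChIP reads and 84313 input reads, a ratio of 0.835 (0.828 to 0.843).

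**Figure D3:**
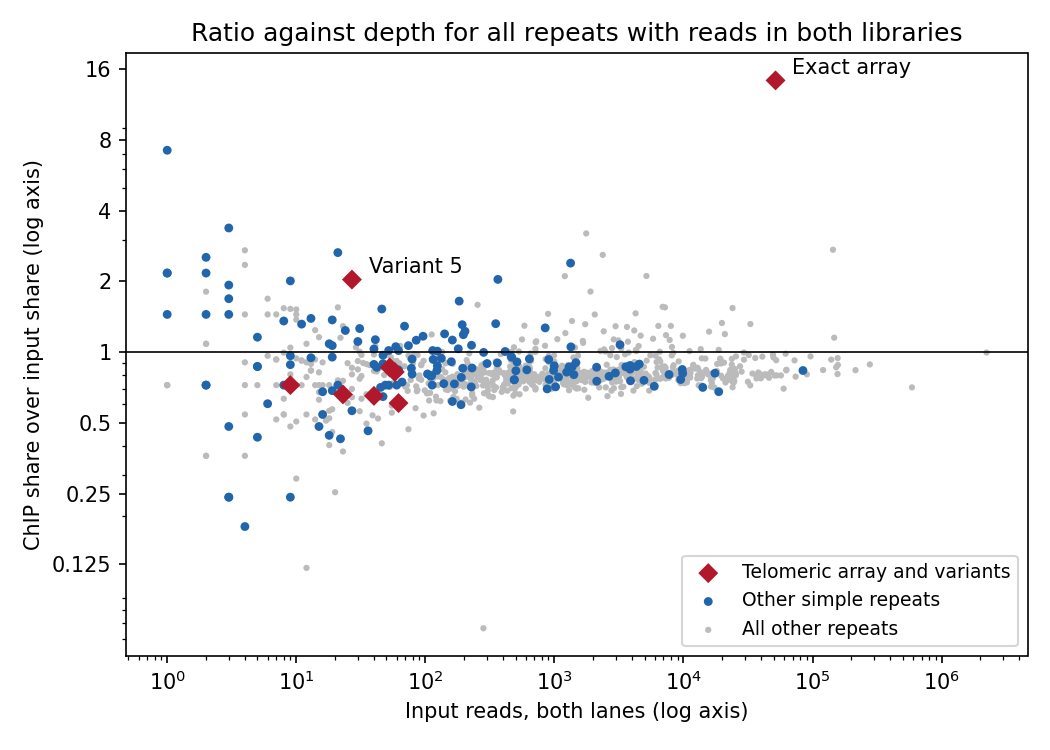
Ratio of ChIP share to input share against input reads, both on log axes, for every repeat type with reads in both libraries; diamonds are the exact array and its variants, large dots other simple repeats and small dots all other repeats. The exact array lies alone at 14.4 with 51711 input reads, whereas the variants lie at 9 to 62 input reads, where the ratios of other repeats are widely spread too.

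The lanes agreed closely for the array and only loosely for the variants. The ratio of the exact array was 14.3 (14.2 to 14.5) in lane 1 and 14.4 (14.2 to 14.5) in lane 2. Lane 1 held 50.8% of its ChIP reads and 50.5% of its input reads, beside 50.7% and 50.4% for the whole tables. The 2 lanes of variant 1 differed by more than counting error, with ratios of 1.49 (0.779 to 2.97) in lane 1 and 0.613 (0.371 to 1.01) in lane 2, or 2.43 times (1.12 to 5.27). The uneven count was that of its input, of which lane 1 held 28.3% (16.8 to 42.4). For the exact array and the other 6 variants the interval of lane 1 over lane 2 included 1.

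**Figure D4:**
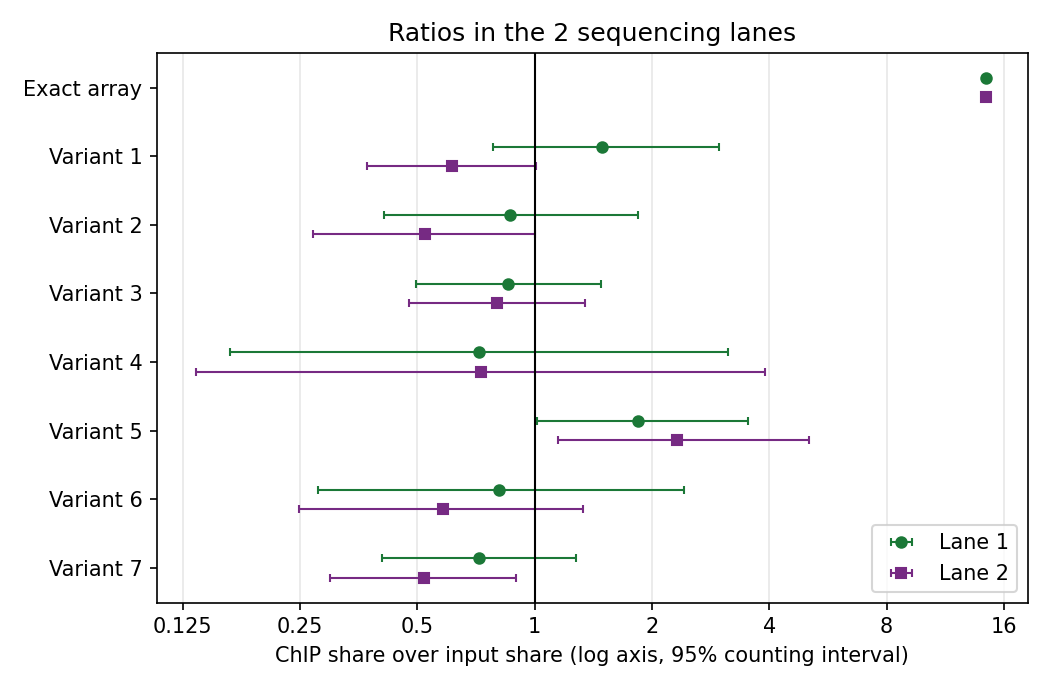
Ratio of ChIP share to input share on a log axis in lane 1 (circles) and lane 2 (squares) for the exact array and variants 1 to 7, with 95% counting intervals and a line at 1. The array has 14.3 and 14.4, variant 5 lies above 1 in both lanes, and variant 1 has 1.49 in lane 1 and 0.613 in lane 2.

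In the authors' deposited table, on its own scale, the log2 ratio of the exact array was 4.01 in lane 1 (bounds 4.00 and 4.03) and 4.01 in lane 2 (bounds 4.00 and 4.03). For (TAGGG)n the authors' deposited table gave 1.02 in lane 1 (bounds 0.37 and 1.77) and 1.34 in lane 2 (bounds 0.59 and 2.22). These were the 2 members with bounds above 0 in both lanes. For (CCCTAG)n the authors' deposited table gave 0.72 in lane 1 (bounds 0.01 and 1.501) and -0.53 in lane 2 (bounds -1.11 and 0.03), so its direction was not the same in the lanes. The other 5 variants had log2 ratios from -0.77 to -0.05 in the authors' deposited table, with an upper bound below 0 for (TTAGGC)n and (CAACC)n in lane 2 only.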

How the data were processed

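Each of the 2 deposited tables covers 1 lane and lists, for every repeat type, raw counts of ChIP and of input reads. A log2 ratio with its bounds, made by the authors, stands beside them. Bowtie 1.0.0 and build mm9 are named in the submitters' processing notes. The sources used here do not give how reads were assigned to rows, or how multiple matches and duplicates were treated. Per the labels' protocols, chromatin was fixed with 0.4% formaldehyde and sheared to about 300 bp, libraries had 10 amplification cycles, and single reads of 50 bp were sequenced. No molecular identifiers are described, so intervals cover counting error only.

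Edit distances of units, ratios and intervals were computed in Python 3.11.15 with scipy 1.17.1. Ratios and their intervals were tested on simulated data for repeats with at least 100 input reads, a set that holds no variant. Edit distances were checked on known units, and the interval of a quotient of ratios was not tested on simulated data. Counts were summed over lanes. A ratio has an exact conditional (Clopper-Pearson) 95% interval, shares per 1000000 reads and lane shares have an exact binomial one, and a quotient of ratios has a normal interval of the log odds ratio. Scaling used table totals, which cover only part of each library.

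The members and lists were chosen with earlier results of these data known. All members are named, with the 5 most enriched non-member simple repeats as a range and (CA)n from the 5 most abundant. The planned minimum of 100 input reads left no variant, so the median and the count of variants use none. Repeats at the variants' own input depth, the split of the variants by a run of G, and sets without (TAGGG)n or (CACAG)n were added after seeing the data. B1F and (CCCCAG)n were named after their values were seen. The sequences of the exact array and of variant 7 are not reported here.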

Additional observations from a re-analysis of the deposited data

How the results depend on the processing

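No paired analysis was possible because each group has 1 sample. The ratio of the exact array was 17.8 with the median repeat set to 1, 13.7 with totals without the 5 rows with most input reads, 15.6 with totals without the array itself and 16.1 on the scale of the deposited log2 values, which was chosen after seeing the data. The pooled ratio of the variants was 1.04 in lane 1 alone and 1.07 with the median repeat set to 1, both with intervals that included 1 but beyond the interval of the summed lanes. Its side of 1 therefore depended on the lane and the scale. Its interval lay below 1 in lane 2 alone and with totals without the 5 rows. The interval of (CAACC)n included 1 in lane 1 alone, with the median repeat set to 1 and on the deposited scale (0.463 to 1.003), while that of (TTAGGC)n lay below 1 in lane 2 alone and, at 0.385 to 0.9995, with totals without the 5 rows. The interval of (TAGGG)n lay above 1 under every lane, scaling and added-read setting. The array over the pooled variants was 13.8 in lane 1 alone and 19.7 without (TAGGG)n. The count of variants with a ratio of at least 1.5 was 0 with at least 100 or 1000 input reads, which leave no variant, 0 for the substitution variants alone and 0 without (TAGGG)n. The median of the variants could not be computed with either minimum. Under the other planned settings it ran from -0.71 in lane 2 alone to -0.15 with the median repeat set to 1 on the log2 scale. Of 56 values of single members under the lane, scaling and added-read settings, 51 stayed within the counting interval, 5 moved out of it and 0 turned to the other side of 1 after an interval that excluded 1. Depth limits the variants, which rest on 9 to 62 input reads each.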
